A study of Mus musculus with 7 samples.

Results

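Between undifferentiated mouse embryonic stem cells (ESCs) and day 6 of mesodermal differentiation, 648 Oct1 sites were listed at both ends of the time course and not at day 3 in between. They were chosen by overlap of the authors' peak lists: an ESC Oct1 peak that shared at least 1 bp with a day 6 Oct1 peak and with no day 3 Oct1 peak. They made up 3.66% of the 17709 ESC Oct1 peaks and 54.9% of the 1180 ESC Oct1 peaks that overlapped a day 6 peak, which were themselves 6.66% of the list. The presence and absence of Oct1 at the 3 times is what the choice used, so it is given as a description and supports nothing. An ESC Oct4 peak, position relative to genes, sequence and the height of each peak within its list were not part of the choice.

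The study profiled Oct1 and Oct4 by chromatin immunoprecipitation and sequencing (ChIP-seq), an assay that crosslinks proteins to DNA, pulls down 1 protein with its DNA and maps the DNA as peaks. All samples came from cells of the parental genotype: Oct1 and Oct4 in undifferentiated ESCs, and Oct1 at day 3 and at day 6 of differentiation with Bmp4 for 2 days followed by Rspo3 and the BMP receptor inhibitor LDN-193189 for 4 days. Each group was 1 library, so there was no replicate error, and 3 input libraries were not analysed here. Oct1 was pulled down with 1 antibody at all times and Oct4 with another. Peak lists show neither expression nor cell identity, so the labelled cell types could not be checked against markers.

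Oct1 (Pou2f1) and Oct4 (Pou5f1) are POU-domain transcription factors. Both read the octamer element and close variants of it, and both can pair on palindromic forms such as MORE. Oct1 is made in most cell types, whereas Oct4 is a core pluripotency factor that often binds next to Sox2 at enhancers and is switched off as ESCs differentiate. Octamer elements were first known from promoters of histone, small nuclear RNA and immunoglobulin genes.

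The sites were largely shared with Oct4 in ESCs and were weakly listed at day 6. An ESC Oct4 peak overlapped 550 of the 648 (84.9%, exact 95% interval 81.9 to 87.5), against 59.1% of all ESC Oct1 peaks. In the day 6 list, the median score percentile of their peaks was 10.7 (9.67 to 11.9), counted from the lowest score. A transcription start lay within 1 kb of 24.6% of them, between the 9.41% of all ESC Oct1 peaks and the 74.1% of the other day 6 Oct1 peaks, and within 1 kb of 71.7% of the 53 sites in the higher-scoring 50% of the day 6 list. Where they did lie at a promoter, the octamer was found there in 4 of 145 cases (2.76%), against 6.69% of all ESC Oct1 peaks at promoter windows, whose intervals overlapped. Intervals here and below cover the counting of peaks alone, because peaks of 1 library are not replicates.

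Promoter sequences are shown for 3 sites on a transcription start, the 2 with the highest ESC Oct1 score among sites with Oct4 and the highest among those without, because their letters can be set beside the element that both factors read. All are from RefSeq (GRCm38.p6), written 5′ to 3′ on the gene's strand over the 250 bases before the start. Capitals mark a match to 1 of 4 motifs searched on both strands: the octamer (ATGCAAAT), a relaxed octamer (ATGCNAAT, which includes the octamer), the core of MORE (GCATATGC) and the Sox-Oct junction (TTGTNATGC, which can overlap an octamer). A match describes letters and is not evidence of a bound site. Tut1 (gene ID 70044, chr19:8953582-8953831, plus strand) encodes the uridylyltransferase of U6 small nuclear RNA, and Wrap53 (gene ID 216853, chr11:69579250-69579499, minus strand) a telomerase and Cajal body protein. Blcap (gene ID 53619, chr2:157566362-157566611, minus strand) is a gene described in earlier work as an Oct1 target.
Tut1: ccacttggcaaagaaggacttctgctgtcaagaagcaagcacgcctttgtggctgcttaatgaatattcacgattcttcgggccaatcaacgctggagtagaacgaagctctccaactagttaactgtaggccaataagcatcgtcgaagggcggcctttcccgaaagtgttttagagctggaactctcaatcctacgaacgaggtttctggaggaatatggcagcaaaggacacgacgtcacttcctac
Wrap53: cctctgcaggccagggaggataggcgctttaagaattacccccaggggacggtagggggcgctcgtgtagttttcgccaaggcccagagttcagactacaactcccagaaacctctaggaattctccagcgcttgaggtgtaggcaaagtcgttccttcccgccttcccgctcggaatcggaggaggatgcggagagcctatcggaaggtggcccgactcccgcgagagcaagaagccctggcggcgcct
Blcap: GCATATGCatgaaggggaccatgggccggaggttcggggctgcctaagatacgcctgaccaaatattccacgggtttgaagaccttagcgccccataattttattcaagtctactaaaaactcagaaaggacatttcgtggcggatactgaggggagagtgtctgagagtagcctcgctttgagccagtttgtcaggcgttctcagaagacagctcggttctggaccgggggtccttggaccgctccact
None of the 4 motifs was found in the windows of Tut1 and Wrap53, and the Blcap window opened with the MORE core. The ESC Oct1 peaks at Tut1 and Wrap53 overlapped an Oct4 peak, and that at Blcap did not.

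The octamer itself was found in the promoter window (from 250 bases before to 50 after the start) of 4 sites. Stretches of 60 bases that hold it are shown, together with the relaxed octamer at Rcan1, which encodes an inhibitor of calcineurin. Gm51480 (chr7:41633204-41633263, minus strand), Gm32856 (chr8:129263392-129263451, plus strand) and Gm20939 (chr17:94864680-94864739, plus strand) belong to sites with an ESC Oct4 peak. Fntb (chr12:76837224-76837283, plus strand), which encodes the beta subunit of protein farnesyltransferase, and Rcan1 (chr16:92400248-92400307, minus strand) belong to sites without.
Gm51480: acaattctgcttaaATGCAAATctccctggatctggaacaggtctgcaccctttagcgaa
Gm32856: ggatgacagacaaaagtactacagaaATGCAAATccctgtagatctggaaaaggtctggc
Gm20939: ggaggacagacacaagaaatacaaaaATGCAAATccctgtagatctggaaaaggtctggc
Fntb: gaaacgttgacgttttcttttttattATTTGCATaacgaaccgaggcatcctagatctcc
Rcan1: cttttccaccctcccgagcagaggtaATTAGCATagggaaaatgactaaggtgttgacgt
The first 3 resembled each other. Aligned on the octamer, Gm32856 and Gm20939 had the same base at 55 of 60 positions (91.7%), and Gm51480 shared 35 of 48 with Gm32856 (72.9%). In all, 42 of 32851 promoter windows shared a word of 20 bases with the Gm32856 window. Of these, 14 overlapped an ESC Oct1 peak, 7 a day 6 peak and 5 one of 3 sites of the class, the Gm32856 site itself included. The first 3 sites therefore share related sequence and are not independent examples. In Fntb the octamer lay outside the ESC Oct1 peak, so 3 of 145 promoter sites held an octamer inside the peak.

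Few of these promoters carried an octamer compared with the ESC Oct1 sites that were listed at day 3. Of 32851 RefSeq promoter windows, 1.74% held the octamer, 3.15% the relaxed octamer, 0.731% the Sox-Oct junction and 0.207% the MORE core. Counted by peak, it was found at 2.76% (0.757 to 6.91) of the 145 sites that overlapped a promoter window and at 86 of the 1286 such ESC Oct1 peaks overall (6.69%, 5.38 to 8.19). At ESC Oct1 peaks listed at all 3 times the number was 45 of 316 (14.2%, 10.6 to 18.6), and at those listed in ESCs and day 3 but not day 6 it was 21 of 140 (15.0%, 9.53 to 22.0). At peaks listed in ESCs alone it was 16 of 685 (2.34%, 1.34 to 3.77). The classes differed in ESC score, with median percentiles over all their peaks of 65.4 for the class, 94.8 at all 3 times and 76.7 in ESCs and day 3. Octamer shares were not compared at equal ESC score. The counts were also split by Oct4. Over all ESC Oct1 peaks at promoter windows, the octamer stood at 25 of 682 with Oct4 (3.67%, 2.39 to 5.36) and 61 of 604 without (10.1%, 7.81 to 12.8). Among peaks with an Oct4 peak the octamer stood at 3 of 99 sites of the class, 7 of 117 listed at all 3 times, 9 of 71 listed in ESCs and day 3, and 6 of 395 listed in ESCs alone. With Oct4, the interval of the class (0.629 to 8.60%) overlapped those of both classes with a day 3 peak (2.44 to 11.9% and 5.96 to 22.7%). Among sites without Oct4 the octamer stood at 1 of 46 in the class (0.055 to 11.5%) and 38 of 199 at all 3 times (19.1%, 13.9 to 25.3). It stood at 12 of 69 in ESCs and day 3 (9.32 to 28.4%), which overlaps the class, and at 10 of 290 in ESCs alone. With the relaxed octamer the class held 8 of 145 (5.52%, 2.41 to 10.6), against 9.25% of all ESC Oct1 peaks at promoter windows, 60 of 316 listed at all 3 times and 3.65% of those listed in ESCs alone. The Sox-Oct junction stood at 3 of 145 (2.07%, 0.429 to 5.93) in the class, 1 of 316 at all 3 times, 2 of 140 in ESCs and day 3, 7 of 685 in ESCs alone and 13 of 1286 overall (1.01%), numbers too small to tell apart.

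**Figure D1:**
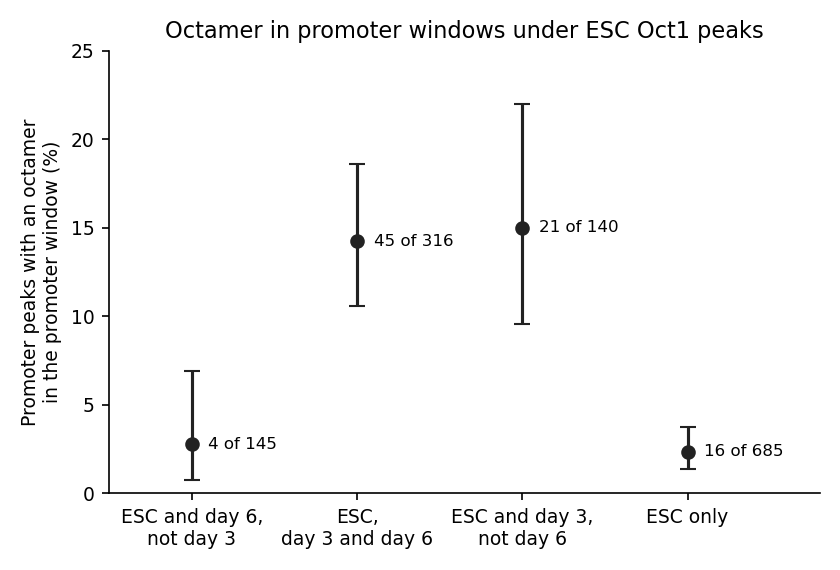
Share of ESC Oct1 peaks overlapping a RefSeq promoter window whose window holds the octamer, for 4 classes of peak by later Oct1 listing (percent on the vertical axis, points with exact 95% intervals, counts beside them). The class that skips day 3 (4 of 145) lies with the peaks listed in ESCs alone (16 of 685), and both classes with a day 3 peak lie at 14.2% and 15.0%.

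Without regard to the day 6 score, the Oct4 share of the class was above that of the other ESC Oct1 classes. Oct4 peaks overlapped 239 of the 532 sites listed at all 3 times (44.9%, 40.6 to 49.3), 567 of the 1040 listed in ESCs and day 3 (54.5%, 51.4 to 57.6) and 9105 of the 15489 listed in ESCs alone (58.8%, 58.0 to 59.6). Seen from the other side, 550 of the 10461 ESC Oct1 peaks with Oct4 fell in the class (5.26%, 4.84 to 5.70) and 98 of the 7248 without (1.35%, 1.10 to 1.64). Of ESC Oct1 peaks that had a day 6 peak, day 3 was skipped by 550 of 789 with Oct4 (69.7%, 66.4 to 72.9) and by 98 of 391 without (25.1%, 20.8 to 29.7). The Oct4 share of the class was similar in all quartiles of the ESC Oct1 score, at 80.0%, 86.9%, 88.6% and 82.9% from the lowest to the highest. It was 89.5% (86.3 to 92.1) for the 455 sites with no gene end within 1 kb and 74.1% (67.3 to 80.1) for the 193 with one. In the peaks listed in ESCs alone, the corresponding shares were 58.7% and 59.0%.

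The Oct4 share did depend on how high the day 6 peak ranked. It was 90.2% (86.3 to 93.3) for the 307 sites whose day 6 peak was in the lowest 10% of its list, 88.6% between 10% and 25%, 74.7% between 25% and 50%, and 58.5% (44.1 to 71.9) for the 53 sites in the highest 50%. The last value is close to the 59.1% of all ESC Oct1 peaks, of which 6.66% had a day 6 peak. The Oct4 share of the class was thus highest at weakly listed day 6 peaks. Of the 53 sites, 71.7% also had a transcription start within 1 kb, and rank and position were not separated. Sites listed at all 3 times showed the same order, from 25 of 28 (89.3%) in the lowest 10% of day 6 scores to 121 of 360 (33.6%) in the highest 50%. In the lowest 10% of day 6 scores the Oct4 shares of the classes with and without a day 3 peak thus had overlapping intervals, whereas between 10% and 25% they were 69.1% (55.2 to 80.9) and 88.6% (83.3 to 92.7). Between 25% and 50% they were 61.8% (50.9 to 71.9) and 74.7% (64.8 to 83.1), which overlap. In the highest 50% the class that skips day 3 still had the larger share (44.1 to 71.9% against 28.7 to 38.7%).

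**Figure D2:**
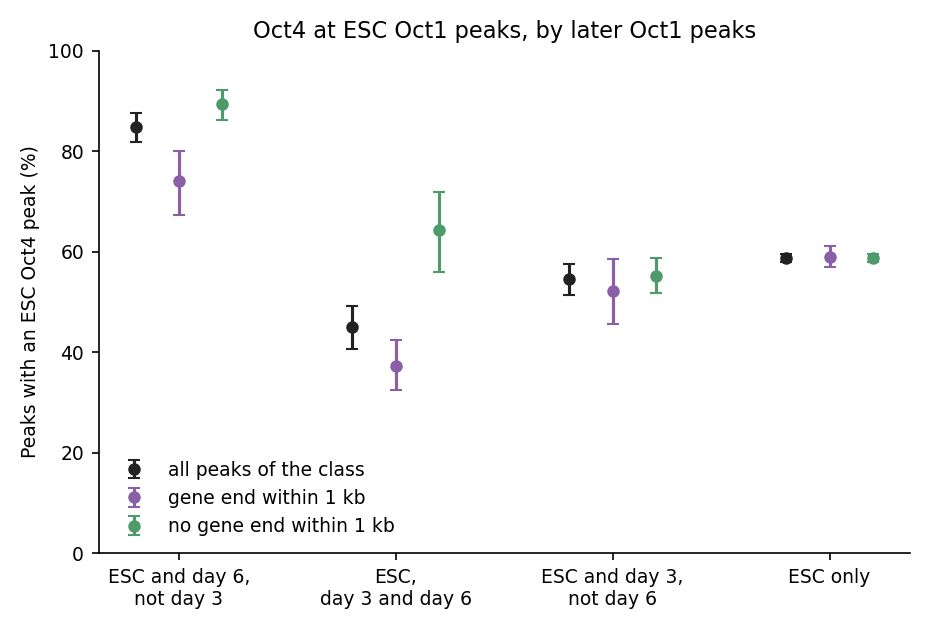
Share of ESC Oct1 peaks that overlap an ESC Oct4 peak (percent, vertical axis) for 4 classes by later Oct1 listing, over all peaks of the class and split by a gene end within 1 kb of the peak midpoint (points with exact 95% intervals). The class that skips day 3 is highest in each of the 3 comparisons, with 84.9%, 74.1% and 89.5%.

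The Oct4 peaks at the 550 sites spanned nearly the whole Oct4 list, with score percentiles from 0.909 to 99.8 and a lower quartile of 52.7. Their median percentile was 74.1 (69.9 to 76.7), against 63.7 (62.9 to 65.8) at peaks listed in ESCs alone, 65.8 (61.8 to 69.9) at those listed in ESCs and day 3 and 87.0 (80.1 to 91.6) at those listed at all 3 times. The peaks were closely centred on each other. The median distance between midpoints was 45 bp from ESC Oct1 to Oct4, 65 bp from day 6 Oct1 to Oct4 and 70 bp from ESC Oct1 to day 6 Oct1, with edges given to the nearest 10 bp. ESC Oct1 peaks of the class were wider with Oct4 (median 740 bp) than without (590 bp), and their day 6 peaks were of similar width (580 and 590 bp). Across the 550 sites the Oct4 percentile followed the ESC Oct1 percentile (Spearman rho 0.61) more closely than the day 6 percentile (rho 0.33). These are correlations across peaks that share their libraries and are given as descriptions.

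In the ESC list the sites were of middling to high rank. Their median ESC score percentile was 65.4 (62.0 to 68.6), below that of sites listed at all 3 times (94.8) or in ESCs and day 3 (76.7) and above that of sites listed in ESCs alone (46.6). The highest 10% of the ESC list held 92 (14.2%, 11.6 to 17.1), against 9.98% of all ESC Oct1 peaks, and 90 (13.9%) fell in its lowest 25%. With and without Oct4 the median ESC percentiles were 65.4 and 66.3, but the highest 10% of the ESC list held 12.4% (9.73 to 15.4) of the sites with Oct4 and 24.5% (16.4 to 34.2) of those without. The median day 6 percentile was 9.95 (8.91 to 11.4) with Oct4 and 22.9 (14.7 to 32.2) without. In the day 6 list, 81.5% of the sites with Oct4 (77.9 to 84.6) and 53.1% of those without (42.7 to 63.2) fell in the lowest 25%. Sites listed at all 3 times had a median day 6 percentile of 71.5 (66.3 to 76.5), and also a lower one with Oct4 (50.3) than without (86.0). Over all ESC Oct1 peaks with a day 6 peak the medians were 14.3 with Oct4 and 74.8 without. Within the class the ESC and day 6 percentiles moved together (Spearman rho 0.46 over 550 sites with Oct4 and 0.62 over 98 without).

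**Figure D3:**
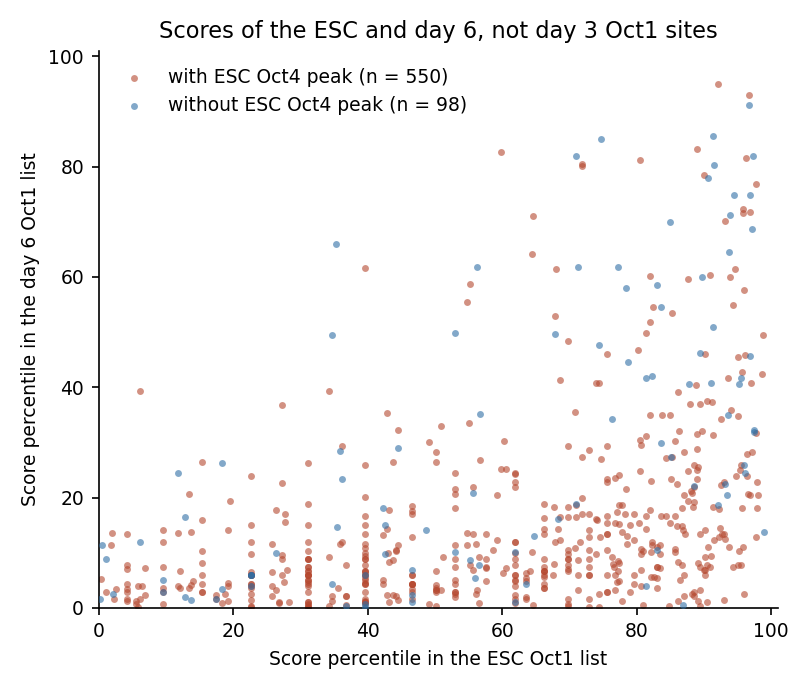
Score percentile of each of the 648 sites within the ESC Oct1 list (horizontal) and within the day 6 Oct1 list (vertical), coloured by the presence of an ESC Oct4 peak. The sites spread over the whole ESC range and crowd at the bottom of the day 6 range, with 53 sites above a day 6 percentile of 50.

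The weak end of the day 6 list was to a large part made of these sites. They accounted for 307 of the 776 lowest-scoring day 6 peaks (39.6%, 36.1 to 43.1), 150 of the next 776 (19.3%) and 3 of the 776 highest (0.387%). Of day 6 peaks in the lowest 25% of scores, a transcription start lay within 1 kb of 14.6% (11.57 to 18.03) at sites of the class and of 58.3% (55.7 to 60.9) elsewhere. The labels' protocol names a depth of 100 M read pairs, but the reads behind each list and the threshold used for it are unknown. A site can be missing at day 3 because its peak fell below the threshold there, and this cannot be told apart from loss of Oct1. The day 3 list was the shortest, with 4867 peaks against 7758 at day 6. When every list was shortened to its 4867 highest scores, 65 sites had the pattern and 44.6% of them (32.3 to 57.5) an Oct4 peak. Among all ESC Oct1 peaks of the shortened lists the Oct4 share was 37.3% (36.0 to 38.7), within the interval of those 65 sites. It was also within it for peaks listed in ESCs and day 3 (35.8%) and in ESCs alone (38.6%). At sites listed at all 3 times it was 24.6% (20.1 to 29.5), below that interval.

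**Figure D4:**
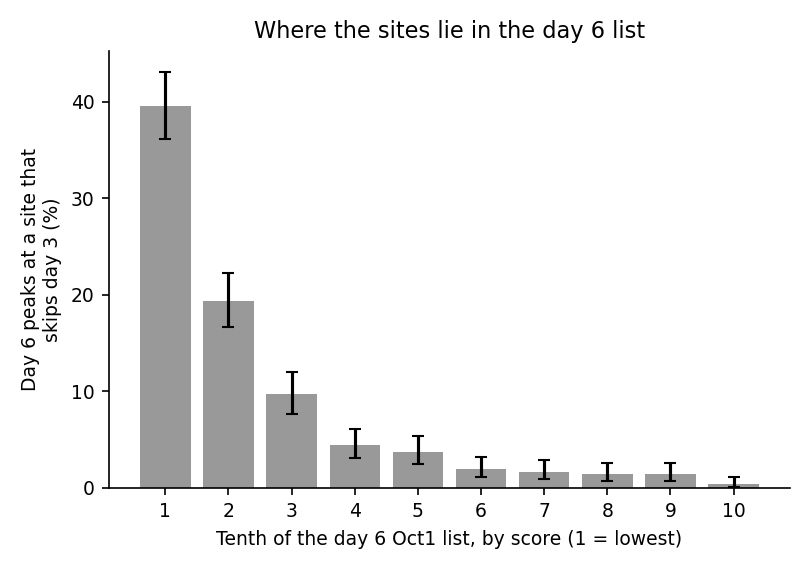
Share of day 6 Oct1 peaks that lie at a site listed in ESCs and day 6 but not day 3 (percent, bars with exact 95% intervals), by successive 10% classes of the day 6 score. The share falls from 39.6% in the lowest class to 0.387% in the highest.

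The choice by overlap was seldom a near miss. The median overlap with the day 6 peak was 540 bp, the smallest 20 bp, and 4 sites overlapped by under 100 bp. Just outside the rule, 51 ESC Oct1 peaks listed in ESCs alone had a day 6 peak less than 500 bp away. A day 3 peak lay less than 1 kb away from 10 sites and less than 500 bp away from 4. The closest was 310 bp from a site at chromosome 8, 25543061 to 25544400, with scores of 380 in ESCs, 342 at day 6 and 514 for Oct4. The midpoint of this site lay inside a protein-coding gene. It was counted for the receptor gene Fgfr1, as inside that gene or within 10 kb of it. The next closest day 3 peaks were 360 bp from a site at Csf2rb, a cytokine receptor gene (chromosome 15, 78339931 to 78341600), and 460 bp from one at Slc25a39. Within 10 kb, a day 3 peak lay beside 12.96% of the class (10.5 to 15.8) and 9.43% of peaks listed in ESCs alone (8.97 to 9.90).

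Over the whole class, the share of sites at a gene end or start was smaller with Oct4 than without. A gene end lay within 1 kb of 193 of the 648 (29.8%, 26.3 to 33.5), compared with 17.3% of all ESC Oct1 peaks. For transcription starts the number was 156 of 634 (24.6%, 21.3 to 28.2), compared with 9.41% of all. Start sites on chromosome 18 were not used here, so its 14 sites are left out of such counts. The promoter windows that gave the starts covered 27025 genes, against 49943 RefSeq genes used for gene ends. Starts of genes without a window are therefore not counted here or elsewhere. With Oct4, 108 of 537 sites lay within 1 kb of a start (20.1%, 16.8 to 23.8), and without Oct4 48 of 97 (49.5%, 39.2 to 59.8). Sites listed at all 3 times had the same order (52.3% with and 73.6% without Oct4). Over all ESC Oct1 peaks the shares were 8.56% and 10.6%. The counts that follow are again for the class. For gene ends the counts were 143 of 550 with Oct4 (22.4 to 29.9%) and 50 of 98 without (40.7 to 61.3%). Among sites whose day 6 peak was in the higher-scoring 50% of its list the shares were 80.6% and 77.3%, and with every list shortened to 4867 peaks 62.1% and 80.6%, with overlapping intervals in both cases. The median distance to a start was 13088 bp with Oct4 and 1155 bp without. More than 10 kb from any start were 55.3% (51.0 to 59.6) of the former and 38.1% (28.5 to 48.6) of the latter. A protein-coding gene contained the midpoint of 395 sites (61.0%, 57.1 to 64.7), against 57.1% of all ESC Oct1 peaks. Whether such a site is exonic or intronic was not analysed here. Closeness to a start also went with the day 6 rank: 8.05% of the sites in the lowest 10% of day 6 scores had a start within 1 kb, and 71.7% of those in the highest 50%.

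**Figure D5:**
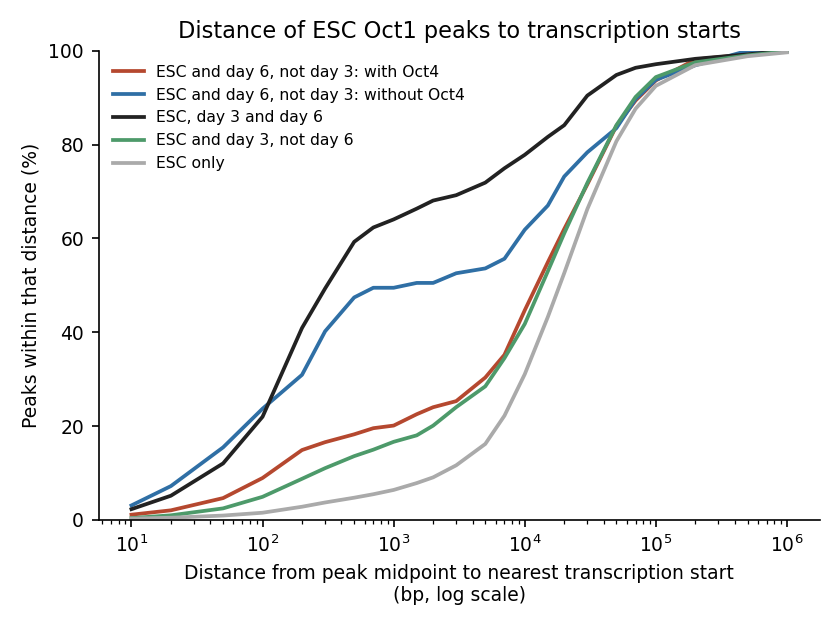
Cumulative share of ESC Oct1 peaks (percent) by distance from the peak midpoint to the nearest RefSeq transcription start (bp, log scale), for the class with and without an ESC Oct4 peak and for 3 other classes. Sites of the class without Oct4 reach 49.5% at 1 kb, those with Oct4 20.1%, and sites listed at all 3 times 64.1%.

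The sites were spread over 621 nearest genes, of which 598 had 1 site each. Clusters were about as frequent as in the whole list: 134 sites (20.7%, 17.6 to 24.0) had at least 2 other ESC Oct1 peaks within 10 kb, against 20.2% of all, and 7.55% did among the sites in the higher-scoring 50% of the day 6 list. Only 3 genes were nearest to 3 or more. Rbfox3, a neuronal splicing factor gene, had 4 (chromosome 11, between 118725201 and 118881370), all with Oct4. Their ESC scores were 65, 50, 397 and 117 and their day 6 scores 52, 98, 138 and 133. Tns1, which encodes a focal adhesion protein, had 3 (chromosome 1, between 73962671 and 74025460), of which 2 had an Oct4 peak, with day 6 scores of 207, 70 and 121. Meak7 was nearest to 3 sites on chromosome 8 (119785861 to 119792770), outside any protein-coding gene, all with Oct4. All 3 groups lay far down the day 6 list, with percentiles of at most 21.5.

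Among sites with Oct4, the highest ESC scores lay on promoters. The site at Tut1 (chromosome 19, 8953491 to 8954190), 8 bp from the start, scored 1546 in ESCs (rank 212), 501 at day 6 and 603 for Oct4. The site at Wrap53 (chromosome 11, 69578881 to 69579630), 6 bp from the start, scored 1331 in ESCs, 425 at day 6 and 871 for Oct4. A day 3 peak lay 590 bp from the Wrap53 site, so it drops out when day 3 peaks within 1 kb are excluded. At Trim6, a ubiquitin ligase gene (chromosome 7, 104218561 to 104219610), the scores were 996, 205 and 936 in the same order. These promoters were near the top of the ESC lists for both factors (Oct4 percentiles of 99.3 to 99.8) and between the 20.4 and 49.4 percentiles at day 6.

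Most of the other leading sites with Oct4 lay more than 1 kb from any gene end. A site inside Dlgap1, which encodes a postsynaptic scaffold protein (chromosome 17, 70738191 to 70739050), scored 944 in ESCs, 183 at day 6 and 902 for Oct4. A site inside Kcnq1, a potassium channel gene (chromosome 7, 143123761 to 143125320), scored 862, 320 and 621. One beside the pseudogene Zfp133-ps, 9 bp from a gene end (chromosome 2, 144458911 to 144459630), scored 909, 234 and 449. Another, 7351 bp from the collagen gene Col6a1 (chromosome 10, 76732731 to 76734060), scored 875, 142 and 376. The promoter site of Fstl5, a follistatin-like gene (chromosome 3, 76074131 to 76074790), stood apart from these with 884 in ESCs and a higher score of 964 at day 6, with 254 for Oct4. Scores of different lists share no known scale, so only the rank within each list compares: Fstl5 ranked 396 in ESCs and 1792 at day 6, whereas Col6a1 ranked 401 and 6753.

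Among sites without Oct4, the highest ESC score belonged to a distal one. It lay 22010 bp from Gm32028 (chromosome 19, 56220681 to 56221440) and scored 1644 in ESCs and 149 at day 6. Another distal site, near Gm31569 (chromosome 12, 29290811 to 29291470), scored 819 and 322. The Blcap promoter site (chromosome 2, 157566271 to 157566890) scored 800 in ESCs and 325 at day 6. The Rcan1 promoter site (chromosome 16, 92399881 to 92400500) scored 764 and 1093, which is rank 487 in ESCs and 1399 at day 6. Dag1, the gene of the laminin receptor dystroglycan, had a site 3565 bp away (chromosome 9, 108200981 to 108201610; 743 and 781). A pair of zinc finger genes followed, Zfp607b with a site inside the gene (chromosome 7, 27689211 to 27689720; 693 and 459) and Zfp512 with a promoter site (chromosome 5, 31452121 to 31452650; 690 and 906). A site at Gm33622 (chromosome 2, 168980791 to 168981340; 670 and 1491) had the highest day 6 score of the class without Oct4.

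The highest day 6 scores belonged mainly to sites at gene ends. With Oct4, the first was Slc25a39, a mitochondrial carrier gene (chromosome 11, 102408371 to 102408920), with 368 in ESCs, 1801 at day 6 (rank 397 of 7758) and 235 for Oct4. It was also the third closest to a day 3 peak. Pter followed (chromosome 2, 12923721 to 12924450; 673 in ESCs, 1606 at day 6). Phf5a, a splicing factor gene (chromosome 15, 81871591 to 81872460), scored 298 in ESCs and 1131 at day 6. Ctnnbl1, which encodes a spliceosome-associated protein (chromosome 2, 157737211 to 157737740), scored 128 and 1117 on a weak Oct4 peak of 47. Aptx, a DNA end-processing gene (chromosome 4, 40702741 to 40703480), scored 609 and 1081, and 4933430I17Rik (chromosome 4, 62525121 to 62525640) scored 208 and 1071.

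Without Oct4, the high day 6 scores were shared between promoters and distal sites. The sites at Gm38709 (chromosome 4, 97772051 to 97772560, scores 347 in ESCs and 1211 at day 6) and Gm42395 (chromosome 7, 62231091 to 62231590, scores 176 and 1196) lay more than 50 kb from any start with a promoter window. That at Gm38709 lay 5117 bp from a gene end. Tsks had a site 380 bp from the start of its neighbour Ap2a1 (chromosome 7, 44929561 to 44930180; 158 and 1093). Brca1, a DNA repair gene (chromosome 11, 101551621 to 101552190; 356 and 1043), and Dhx38, a splicing helicase gene beside Txnl4b (chromosome 8, 109565601 to 109566140; 333 and 984), had promoter sites. Sparc, which encodes a matrix glycoprotein, had a site 8315 bp from its start (chromosome 11, 55428141 to 55428650; 462 and 906).

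For pathway genes, a site was counted when it lay inside the gene or less than 10 kb from it. Of 21887 protein-coding genes, 677 (3.09%) had one, and of the 304 genes in 12 lists 18 did (5.92%, 3.55 to 9.20). None of the 20 pluripotency genes had such a site, although 12 had an ESC Oct1 peak and 8 a day 6 peak, and none of the 27 mesoderm genes did (9 and 11). The same held for 19 other POU and Sox genes. With lists of this size, 0 of 20 allows a share of up to 16.8% and 0 of 27 up to 12.8%.

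Signalling and neural genes had scattered sites, most with Oct4 and low at day 6, as in the class as a whole. Of 17 neural genes, Nes, the intermediate filament gene nestin (chromosome 3, 87982321 to 87983510), scored 100 in ESCs, 187 at day 6 and 271 for Oct4. A weak site near Zic2 lay on the promoter of Pcca (chromosome 14, 122484001 to 122484500; 32, 87 and 182), and Hes5, a Notch effector gene, was the nearest gene of a site more than 10 kb away (chromosome 4, 154945991 to 154946700; 166, 173 and 184). Of 32 TGF-beta, BMP and Smad genes, only Ski had one (chromosome 4, 155173261 to 155173970; 99, 325 and 291); Ski encodes a co-repressor that binds Smad proteins. Of 33 Wnt pathway genes, the ligand gene Wnt3 had 1 (chromosome 11, 103780591 to 103781220; 130, 91 and 143). The co-receptor gene Lrp5 had 2, of which 1 without Oct4 lay at the start of Ppp6r3 (chromosome 19, 3575841 to 3576370; 158 and 190) and 1 with Oct4 inside Lrp5 (3628561 to 3629130; 87, 134 and 136). Of 20 FGF genes, Fgfr1 had the site closest to a day 3 peak, and of 19 Notch genes, Mfng, which encodes a glycosyltransferase acting on Notch, had 1 (chromosome 15, 78748681 to 78749520; 111, 112 and 192).

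Genes of chromatin, metabolism and transcription had a few sites each. Of 37 chromatin genes, 3 did, and all 3 encode subunits of Polycomb repressive complex 1. A site between Cbx8 and Cbx2 (chromosome 11, 119034081 to 119034600) scored 222 in ESCs, 235 at day 6 and 358 for Oct4. A second near Cbx8 (119047251 to 119047880) scored 58, 76 and 196. The site counted for Phc1 (chromosome 6, 122308471 to 122308970) was nearest to M6pr, with its midpoint on a gene end, and scored 424 and 714 without Oct4. The complex was noticed after the values were seen, and Cbx2 and Cbx8 share a site. Of 26 genes of glycolysis and the pentose phosphate pathway, 4 had one (15.4%, 4.36 to 34.9). Gapdh had a site 662 bp from its start (chromosome 6, 125166151 to 125166720, scores 109, 332 and 142). Tpi1 had a promoter site without Oct4 (chromosome 6, 124814151 to 124814820, scores 60 and 58). The sites counted for Hk1 and Eno3 were nearest to Tacr2 (chromosome 10, 62260991 to 62261830; 743, 284 and 621) and Camta2 (chromosome 11, 70669731 to 70670270; 149, 664 and 222).

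Of 34 RNA polymerase II and general transcription factor genes, Gtf2f1 had a promoter site without Oct4 (chromosome 17, 57010951 to 57011620; 196 in ESCs, 615 at day 6). The site of Gtf2e1 overlapped the promoter windows of Gtf2e1 and of its neighbour Rabl3 (chromosome 16, 37539671 to 37540210, scores 219, 530 and 201 for Oct4). That of Polr2e lay inside Arhgap45 (chromosome 10, 80027961 to 80028460, scores 73, 72 and 100). The list of known Oct1 target genes from earlier work held 22, of which 18 had an ESC Oct1 peak and only Blcap had a site of the class (4.55%, 0.115 to 22.8). All intervals for the lists with a site included 3.09%, except those of the glycolysis genes and of all lists together. Among the 7715 protein-coding genes with an ESC Oct1 peak, which a site requires, the share was 8.78%. On that base, 4 of 14 glycolysis genes and 18 of 157 genes of all lists had a site. The list intervals were taken over all listed genes, so they cannot be set against 8.78%. Gene length and the sharing of sites between neighbours also set these shares, and the lists were not tested.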

How the data were processed

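Peak lists of 4 ChIP-seq libraries were used, with 1 library per group and none pooled. Reads were processed with Novoalign 3.8.2 and mm10, per the submitters' processing notes; the peak caller, its threshold and its control are not given in the sources used here. Each deposited list gives chromosome, start, end, name and a score, a whole number per peak from the authors without a unit, used here only as a rank within its list (percentile). Coordinates are 1-based. The deposited lists hold no read counts. The labels' protocol names 100 M read pairs of 50 bases, and the depth behind each peak is unknown.

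Overlap of at least 1 bp was counted with pandas 2.3.3 and numpy 2.4.6 under Python 3.11.15 (intervals from scipy 1.17.1), with the same membership from bedtools 2.31.1, and tested on simulated data. Figures used matplotlib 3.10.9. Gene ends came from 49943 RefSeq genes (GRCm38.p6) and transcription starts from 32851 promoter windows; all 306 list entries matched a gene. Shares carry exact Clopper-Pearson 95% intervals and medians order-statistic 95% intervals. Without replicate libraries, conditions were not tested and no p-value is given. Named sites were the 8 highest ESC scores with and without Oct4, the 6 highest remaining day 6 scores of each, up to 6 sites per gene list, the 3 closest to a day 3 peak and genes nearest to at least 3 sites. The class, the lists and the tests were chosen with earlier results of these data known. Alternatives for overlap, day 3 distance, score cut-offs, clusters, gene distance and motif were run.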

Additional observations from a re-analysis of the deposited data

How the results depend on the processing

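Each of 10 results was recalculated under the alternatives; 26 of the 61 values obtained stayed within the interval of the reported value or within 1.5 times for counts. The Oct4 share of all peaks in shortened lists, the use of transcription starts, the relaxed octamer and the octamer count with higher-scoring day 6 peaks were chosen after the data were seen. The score cut-offs moved every result they were applied to; the cause was not tested for those that shortened several lists at once. With the higher-scoring 50% of day 6 peaks, 53 sites remained: 58.5% had an Oct4 peak, 79.2% lay at a gene end (80.6% with and 77.3% without Oct4), 7.55% were clustered, the median percentiles were 88.9 (ESC) and 68.6 (day 6), 4 list genes had a site and 0 of 35 sites at a promoter window had an octamer there (0%, up to 10.003%). With the higher-scoring 50% of every list, including day 3, 82 sites had the pattern, not all of them among the 648, with 51.2% Oct4, 86.6% at a gene end (85.7% and 87.5%), 9.76% clustered and median percentiles of 87.0 and 68.0. With every list at 4867 peaks, 65 sites had the pattern, with 44.6% Oct4, 72.3% at a gene end (62.1% and 80.6%), 13.8% clustered and median percentiles of 91.0 and 57.6. The share at a gene end was 33.9% without clustered ESC peaks. It was 49.5% within 5 kb (46.7% with and 65.3% without Oct4), 24.7% for protein-coding genes (20.5% with Oct4) and 24.6% for transcription starts (20.1% with Oct4). Within 2 kb of the gene body, 11 list genes had a site. With 50% reciprocal overlap in every comparison, 567 sites had the pattern, and excluding those with a day 3 peak within 1 kb left 638, with Oct4 shares of 82.4% and 84.95%. The motif search in the central 200 bp of peaks was not run, because no genome sequence was used here. No paired analysis was possible because each group had 1 library. Depth and thresholds are unknown and limit every statement on absence at day 3.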

Other observations

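Chromosome X was unevenly represented, which was noticed after the values were seen. Of the 88 ESC Oct1 peaks on X, 15 were listed at day 6 and not at day 3 (17.0%, 9.87 to 26.6), against 3.66% of all ESC Oct1 peaks. For chromosome 11, with the most sites, the share was 111 of 2503 (4.43%, 3.66 to 5.32). Of the 15 sites on X, 10 had a transcription start within 1 kb and 10 an Oct4 peak. They included the promoters of the ribosomal protein genes Rpl39 (chromosome X, 37084841 to 37085670; ESC score 337, day 6 score 648) and Rpl36a (134585401 to 134586010; 213 and 117). Others were the promoters of Upf3b, a nonsense-mediated decay gene (37109981 to 37110700; 454 and 568), Smc1a, a cohesin subunit gene (152016041 to 152017130; 298 and 290), and Dkc1, which encodes a pseudouridine synthase of the telomerase complex (75095661 to 75096300; 148 and 543). Whether the number of X-linked sites follows the day 6 list's own content of X was not tested.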
